A study of Macaca mulatta with 10 samples.

Results

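The nuclear genes of respiratory complex I were followed one by one in Tr1 cells from islet-transplanted rhesus macaques. The genes were every row of the count table named NDUFA, NDUFB, NDUFC, NDUFS or NDUFV with a number, plus NDUFAB1, which gave 38 of the 26484 genes listed. The rule reads gene names and uses no measured value, although the group was taken up with earlier results of these data known. Complex I (NADH:ubiquinone oxidoreductase) is the entry point of the mitochondrial respiratory chain. It takes electrons from NADH at the tip of an arm that reaches into the matrix, passes them along iron-sulfur clusters to ubiquinone, and pumps protons through an arm that lies in the inner membrane. Its core subunits carry the chemistry and are split between the nuclear and the mitochondrial genome, while the accessory subunits surround the core and are needed for assembly and stability.

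Cohort B monkeys had diabetes induced by streptozotocin, received islet allografts matched for 1 MHC class II DRB allele under short-term immunosuppression, and were given no apoptotic donor leukocytes (ADLs). Cohort C monkeys had the same background and received ADL infusions around transplantation in addition. Blood mononuclear cells taken at the end of follow-up, which the labels set by rejection in the cohort without ADLs and by the planned study end in the cohort with them, were frozen, thawed, rested overnight and sorted for CD4, CD49b and LAG3. By these labels rejection and the absence of ADLs cannot be told apart, although the text of the study differs from the labels for some monkeys. There was 1 library per monkey, from 5 monkeys per cohort. The reads of these macaque cells had been mapped to the human genome, and genes carry human symbols.

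Library depth bears on every value that follows. Total counts ran from 6076 (monkey 14HP31) to 1392157 (13EP8) in Cohort B and from 66485 (15CP4) to 5895609 (15CP1) in Cohort C, and only 13EP12 and 13EP8 in Cohort B and 13EP5 and 15CP1 in Cohort C held more than 1000000. The MTRNR2L family took 87.0% of the counts of 14HP33 and between 3.09 and 43.4% elsewhere. CD4 had counts in 6 of the 10 libraries, ITGA2 (CD49b) in 4 and LAG3 in 3. In 14HP31 none of the 10 T cell markers in the table had a count, and in 14HP26, 15CP4 and 14HP33 at most 2 had. Monocyte markers held 593 to 6693 counts in the 4 deep libraries and 400 in 15CP6, and at most 76 in the others. Their part in the results on complex I was not tested. In sorted bulk cells, fewer cells of a type and less RNA per cell cannot be told apart.

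Complex I genes were read in the deep libraries of both cohorts and were nearly unread in the others. Of the 38 genes, 36 had counts in 13EP5 and the same number in 15CP1, the deep Cohort C libraries. In the deep Cohort B libraries, 23 had counts in 13EP12 and 27 in 13EP8. In the remaining Cohort B libraries 5 had counts in 14HP26, 5 in 15CP6 and 0 in 14HP31, and in the remaining Cohort C libraries 4 had counts in 14HP33, 4 in 14HP24 and 0 in 15CP4. The 2 genes at 0 in every library were NDUFA3, a small membrane subunit, and NDUFA6, a subunit of the LYR family that binds the acyl carrier protein.

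**Figure D1:**
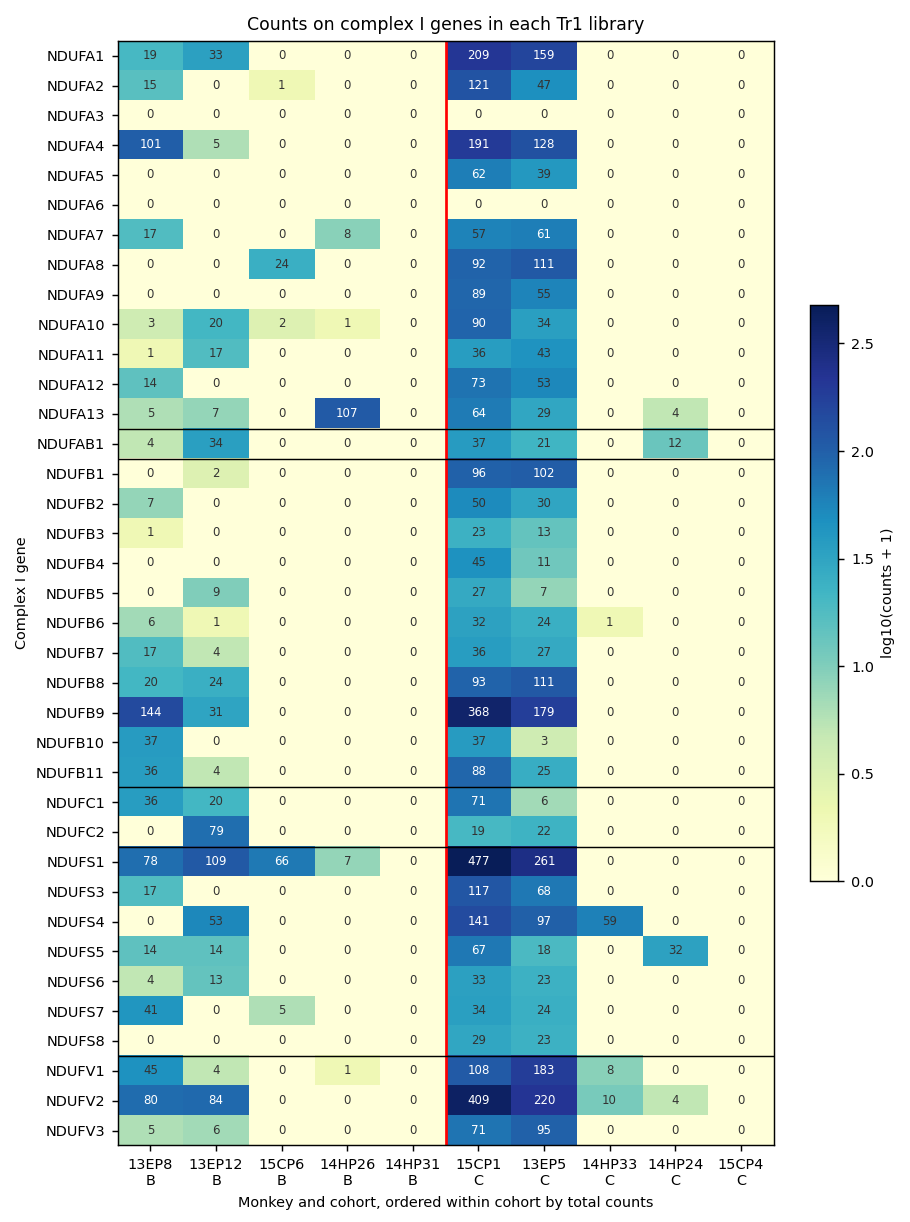
Counts per library (columns, ordered within cohort by total counts, with a red line between Cohort B and Cohort C) for 37 of the complex I genes (rows, by module), coloured by log10(counts + 1). The columns of 15CP1 and 13EP5 are filled for all rows but NDUFA3 and NDUFA6, those of 14HP31 and 15CP4 are empty, and isolated filled squares such as NDUFS4 in 14HP33 (59 counts) stand alone in the shallow libraries.

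The genes held 8317 counts in all, of which 13EP5 and 15CP1 contributed 78.4%, against 68.1% of the counts of all genes. The highest count lay in 15CP1 for 25 genes, in 13EP5 for 7 and elsewhere for 4. Summed over the 38 genes, the level in normalized CPM (counts divided by the TMM-scaled library size, times 1000000) was 502 in 13EP12, 656 in 13EP8, 727 in 14HP26, 0 in 14HP31 and 216 in 15CP6. In Cohort C the sum was 811 in 13EP5, 1108 in 14HP33, 299 in 14HP24, 810 in 15CP1 and 0 in 15CP4. The ranges of the cohorts overlapped. The place of 14HP33 depends on its scaling, since its TMM factor was 0.0727. Per 1000000 counts its complex I genes held 80.5, the lowest share above 0, and 618 with the MTRNR2L family left out. The sum of 14HP33 came almost wholly from NDUFS4, NDUFV1 and NDUFV2, at 838, 114 and 142 normalized CPM, and that of 14HP26 from NDUFA13, at 628.

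Depth was taken into account by asking how many of the genes each library would show if its counts outside the MTRNR2L family were drawn from the composition of 15CP1. By that measure 36.0 of the genes would appear in both 13EP12 and 13EP8, 34.1 in 15CP6, 22.8 in 14HP26 and 3.20 in 14HP31. The libraries held 63.9, 75.0, 14.7, 22.0 and 0% of these numbers. In Cohort C, 27.1 would appear in 14HP33, 25.3 in 14HP24 and 15.2 in 15CP4, where 14.8, 15.8 and 0% of them were seen, while 13EP5 reached 100%. All genes of the table fell short too, at 66.8% in 13EP12, 75.6% in 13EP8, 42.5% in 15CP6, 32.9% in 14HP26, 19.2% in 14HP31, 17.7% in 14HP33, 37.5% in 14HP24, 13.6% in 15CP4 and 81.5% in 13EP5. The shortfall of the complex I genes was thus near that of all genes in 13EP12, 13EP8 and 14HP33 and larger in 15CP6, 14HP26 and 14HP24. In 14HP31 and 15CP4, where 3.20 and 15.2 would appear, these numbers are too small for 0 seen to be told from the shortfall of all genes. The number seen for all genes includes genes without counts in 15CP1, whereas every complex I gene read had counts there. This raises the share of all genes, so the sizes of the shortfalls cannot be compared strictly. A level of 3 counts, taken as the least a library can show, equals 0.621 normalized CPM in 15CP1, 2.60 in 13EP12 and 2.29 in 13EP8, but 17.6 in 14HP26, 42.6 in 14HP33 and 118 in 14HP31. Of the 36 genes whose level in 15CP1 exceeded the floor of 13EP12, 13 were at 0 there, and 9 of 36 were at 0 in 13EP8. On this stricter measure of 3 counts, and with its small TMM-scaled size, 14HP33 had a floor below the 15CP1 level of 5 genes, of which 4 were at 0 there, and 14HP31 a floor below that of none.

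**Figure D2:**
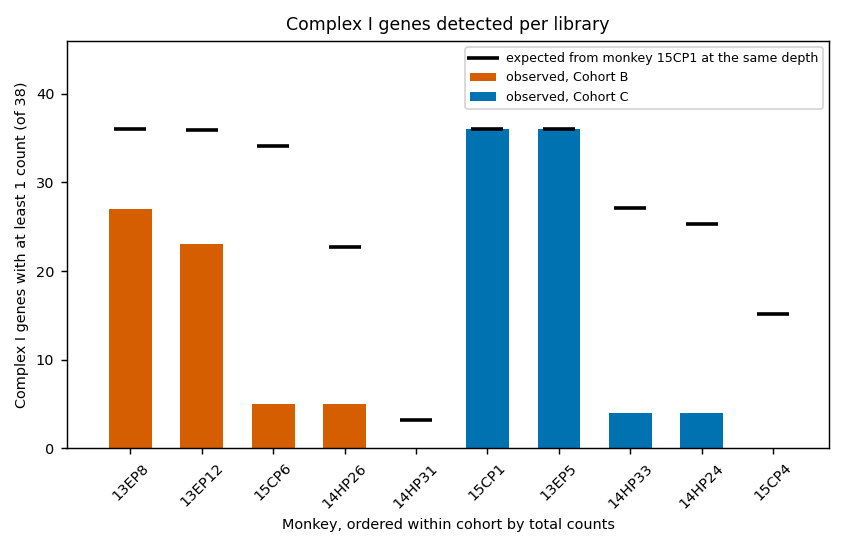
Number of complex I genes with at least 1 count in each library (bars, orange for Cohort B and blue for Cohort C) and the number that the composition of monkey 15CP1 would give at the same depth (black lines). The bars reach the lines in 13EP5 and 15CP1 and stay below them elsewhere, as in 15CP6 with 5 genes where 34.1 would appear.

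The matrix arm begins with the NADH-oxidizing module. NDUFV1, which binds FMN and NADH, had 4, 45 and 1 counts in 13EP12, 13EP8 and 14HP26, and 183, 8 and 108 in 13EP5, 14HP33 and 15CP1. NDUFV2, its iron-sulfur partner, had 84 and 80 counts in 13EP12 and 13EP8, and 220, 10, 4 and 409 in 13EP5, 14HP33, 14HP24 and 15CP1. These are the most widely read members beside NDUFS1, NDUFA10 and NDUFA13, each with counts in 6 libraries. In normalized CPM, NDUFV2 overlapped between the cohorts in the deep libraries, at 72.7 and 61.0 in Cohort B and 68.4 and 84.6 in Cohort C. NDUFV3, an accessory subunit of the same module, was read in the 4 deep libraries only, at 5.19 and 3.81 normalized CPM in Cohort B and 29.5 and 14.7 in Cohort C. NDUFS1, the largest subunit and the carrier of several iron-sulfur clusters, had 109, 78, 7 and 66 counts in 13EP12, 13EP8, 14HP26 and 15CP6, and 261 and 477 in 13EP5 and 15CP1. Its level was the highest of all members in 13EP12, 13EP5 and 15CP1, at 94.3, 81.1 and 98.7 normalized CPM, without correction for gene length.

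The ubiquinone-binding module, which follows in the matrix arm, holds further nuclear core subunits. NDUFS3, one of them, had 17 counts in 13EP8 and 68 and 117 in 13EP5 and 15CP1. NDUFS7, which carries the last iron-sulfur cluster before ubiquinone, had 41 counts in 13EP8, 5 in 15CP6, and 24 and 34 in 13EP5 and 15CP1. NDUFS8, which carries the preceding clusters, had 23 and 29 counts in 13EP5 and 15CP1 and none elsewhere. All 7 nuclear core subunits were read in 13EP5 and 15CP1, against 4 in 13EP12, 6 in 13EP8 and at most 2 in any other library. The mitochondrially encoded core subunits were not analysed here, as 0 of the 14 names searched, with and without the MT prefix, were in the table.

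The accessory subunits of the NDUFA group differed widely in where they were read. The 11 with any count were all read in 13EP5 and 15CP1, while 5 had counts in 13EP12 and 8 in 13EP8. NDUFA5 and NDUFA9, both next to the ubiquinone module, had 39 and 55 counts in 13EP5 and 62 and 89 in 15CP1, and none in any other library. NDUFA8, a cysteine-rich subunit of the intermembrane space face, was at 0 in both deep Cohort B libraries yet had 24 counts in 15CP6, beside 111 and 92 in 13EP5 and 15CP1. NDUFA13, also known as GRIM-19, had 107 of the 124 complex I counts of 14HP26, and 4 to 64 counts in the other 5 libraries where it was read. NDUFA4, which carries a complex I name but is now placed in cytochrome c oxidase, had 5 and 101 counts in 13EP12 and 13EP8 and 128 and 191 in 13EP5 and 15CP1.

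The NDUFB and NDUFC groups belong to the membrane arm, and nearly all their counts came from the deep libraries. In the other 6 libraries the NDUFB group had 1 count in all, of NDUFB6 in 14HP33, and the NDUFC group had none. NDUFB9, another LYR subunit, had the highest level of any member in 13EP8, at 110 normalized CPM, against 26.8 in 13EP12, 55.6 in 13EP5 and 76.1 in 15CP1. NDUFB4, with 11 and 45 counts in 13EP5 and 15CP1, was the only NDUFB gene at 0 in all of Cohort B. NDUFC1 and NDUFC2 form a short pair at the inner end of the arm. NDUFC1 had 20 and 36 counts in 13EP12 and 13EP8 and 6 and 71 in 13EP5 and 15CP1, and NDUFC2 had 79 counts in 13EP12, none in 13EP8, and 22 and 19 in 13EP5 and 15CP1. NDUFAB1, the mitochondrial acyl carrier protein, had 34 and 4 counts in 13EP12 and 13EP8 and 21, 12 and 37 in 13EP5, 14HP24 and 15CP1.

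Detection was spread over many patterns, several of them held by 1 gene each. Counts in exactly the 4 deep libraries were the most frequent one, with 11 genes, among them NDUFA1, NDUFA4, NDUFB8, NDUFB9, NDUFC1, NDUFS6 and NDUFV3. A further 5 lacked only 13EP12 among these (NDUFA12, NDUFB2, NDUFB3, NDUFB10 and NDUFS3) and 3 lacked only 13EP8 (NDUFB1, NDUFB5 and NDUFC2). The 4 genes read in no Cohort B library were NDUFA5, NDUFA9, NDUFB4 and NDUFS8, and no gene was read in Cohort B alone. In share, 11.1% of the 36 complex I genes with at least 10 counts in all, which are those that entered the tests, were at 0 in all of Cohort B, against 13.7% of the 14168 genes with as many. At 0 in all of Cohort C were 0% of the 36, against 5.05% of all genes tested. Counts in both 13EP5 and 15CP1 were found for 100% of the 36, against 78.8% of all genes tested. None of the 36 had over 90% of its counts in 1 library, against 12.4% of all genes tested.

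NDUFS4, an accessory subunit of the NADH module whose loss is a known cause of Leigh syndrome, was detected in a set of libraries that no other member shared. The same held for NDUFA7, NDUFA8, NDUFA13, NDUFB6, NDUFV1 and NDUFV2, each with a set of its own. NDUFS4 was read in 13EP12, 13EP5, 14HP33 and 15CP1, with 53, 97, 59 and 141 counts. Only 3 of the 37 other genes were read in all of these libraries (NDUFB6, NDUFV1 and NDUFV2), and 7 were read in some of them and in none beyond them. Its 59 counts made up most of the 78 complex I counts of 14HP33, where NDUFV2 had 10, NDUFV1 had 8 and NDUFB6 had 1. In that library 2 of the 10 T cell markers and 3 of the 8 housekeeping genes had counts, CD4 was at 0, and the erythroid markers held 93 counts. In 13EP8, where 27 other genes were read, NDUFS4 was at 0, which in that library allows at most 2.29 normalized CPM, against 29.2 to 45.8 in the other deep libraries.

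NDUFS5, an accessory subunit of the intermembrane space face, shared its libraries with NDUFAB1 alone. Both were read in 13EP12, 13EP8, 13EP5, 14HP24 and 15CP1, where NDUFS5 had 14, 14, 18, 32 and 67 counts. In all, 3 genes were read in every library of NDUFS5 (NDUFAB1, NDUFA13 and NDUFV2) and 24 were read in no library beyond its own. In 14HP24 it stood beside only 3 others, NDUFAB1 with 12 counts and NDUFA13 and NDUFV2 with 4 each. The study's own listing of levels holds other values for NDUFS4 and NDUFS5 in Cohort B than the deposited counts, and only the deposited values are used here. NDUFS4 and NDUFS5 were read together in the deep libraries 13EP12, 13EP5 and 15CP1, and in the shallow libraries each appeared where the other was at 0.

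The comparison of the cohorts asked which complex I genes differed between Tr1 cells with and without ADL infusion. In edgeR's quasi-likelihood test over 14168 genes, 0 of the 36 complex I genes had a Benjamini-Hochberg adjusted p under 0.05, as had 0% of all genes tested. With the study's filter (p under 0.01 before adjustment, and a change of 1.5-fold or more), 0 of the 36 were called, against 6.43% of all genes (1.07% higher and 5.36% lower in Cohort C). An unadjusted p under 0.05 was reached by 4 complex I genes, or 11.1%, against 20.6% of all genes tested. By the same measure edgeR's exact test gave 2 complex I genes (5.56%, against 9.34% of all genes) and limma-voom 1 (2.78%, against 2.58%). DESeq2 and the exact permutation test gave 0 (against 2.51 and 0.24%). After adjustment none of these tools called any of them. Of all genes, only DESeq2 called any, at 2 of 14168. The log2 fold change, as Cohort C minus Cohort B, was above 0 in 23 genes and below 0 in 13, or 63.9% above, against 53.5% of all genes tested. Its median was 0.92 over the complex I genes and 0.16 over all genes tested. These counts and medians carry no test.

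By module, the median log2 fold change was 0.35 for NDUFA (7 genes above 0 and 4 below), 0.50 for NDUFB (7 and 4), -1.87 for NDUFC (0 and 2), 1.22 for NDUFS (5 and 3) and 1.96 for NDUFV (3 and 0). The value for NDUFAB1 was 1.17. The 7 core subunits had a median of 1.16 and the 29 accessory ones tested a median of 0.50. The standard error of a single gene ran from 1.47 to 2.47 on the same scale, larger than most of these values. Within each module of more than 3 genes the values spread on both sides of 0, from -3.75 (NDUFA13) to 6.20 (NDUFA9) in NDUFA, from -1.51 (NDUFB10) to 4.94 (NDUFB4) in NDUFB and from -1.40 (NDUFS7) to 4.97 (NDUFS8) in NDUFS.

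**Figure D3:**
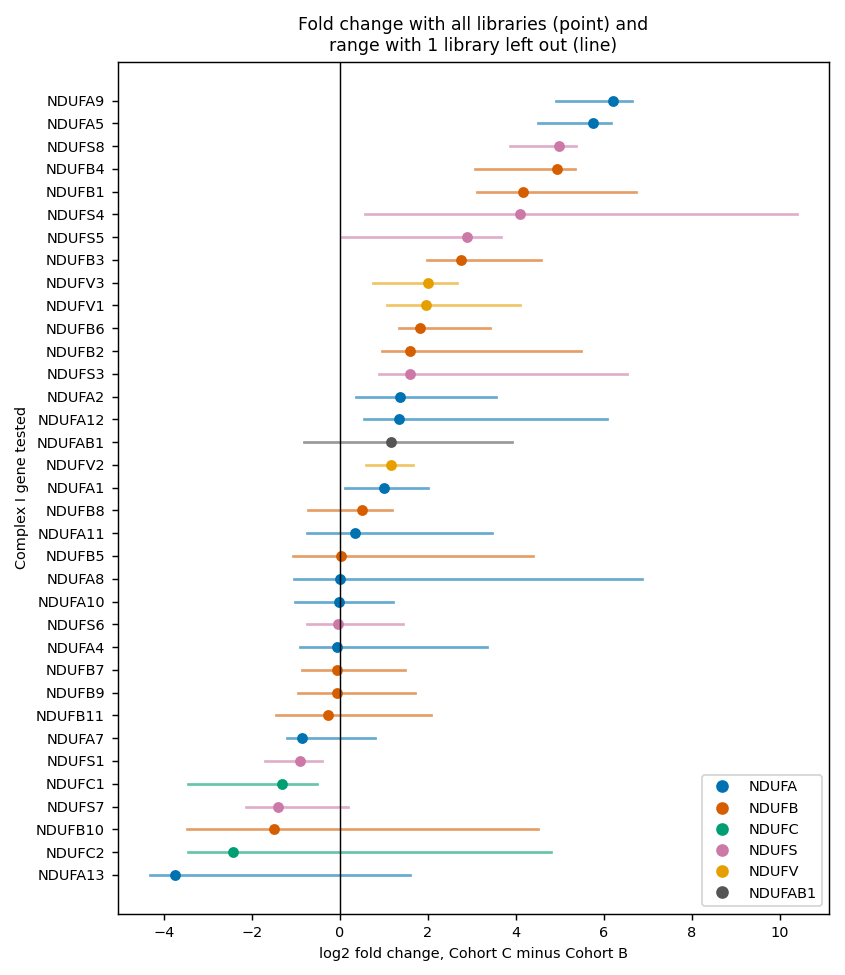
Log2 fold change (Cohort C minus Cohort B) of 35 of the complex I genes tested, with all 10 libraries (points, coloured by module) and the range when each library is left out in turn (lines). At the top, NDUFA9 at 6.20 stays above 0 throughout, as it must without any Cohort B count and with counts in 2 Cohort C libraries. The lines of NDUFA13, NDUFC2 and NDUFB10 at the bottom cross 0.

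The 4 genes with the smallest p were those read in 13EP5 and 15CP1 only. NDUFA9 was at 17.1 and 18.4 normalized CPM in these libraries and at 0 in the other 8 (log2 fold change 6.20, SE 2.47, adjusted p = 0.141, edgeR). NDUFA5 was at 12.1 and 12.8 (5.75, SE 2.31, adjusted p = 0.141, edgeR), and NDUFS8 at 7.15 and 6.00 (4.97, SE 2.05, adjusted p = 0.141, edgeR). As Cohort B held no count of them, fitted values are no bound. Against a floor of 3 counts over the whole of Cohort B, the pooled Cohort C level was at least 17.7-fold higher for NDUFA9, 12.4-fold for NDUFA5, 6.88-fold for NDUFB4 and 6.39-fold for NDUFS8. These bounds cover counting error only and leave out the variation between monkeys. All Cohort C counts of these genes came from 13EP5 and 15CP1. The cohorts still overlapped for all 4 genes, since 3 Cohort C libraries were at 0 as well, and a two-sided exact permutation test of log2(CPM + 1) gave p = 0.444 for each (n = 5 monkeys per cohort, smallest possible p 0.00794). Without 13EP5 or 15CP1 the log2 fold change of NDUFA9 fell to 5.28 or 4.91.

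NDUFS4 was at 45.8 normalized CPM in 13EP12 and at 0 in the other 4 Cohort B libraries, and at 30.1, 838, 29.2, 0 and 0 in 13EP5, 14HP33, 15CP1, 14HP24 and 15CP4. The level of 13EP12 was above those of 13EP5 and 15CP1, and only 14HP33 exceeded it. On the log2(CPM + 1) scale the mean was 1.11 ± 2.48 in Cohort B and 3.92 ± 4.07 in Cohort C (SD, n = 5 monkeys per cohort). The log2 fold change was 4.08 (SE 2.26, adjusted p = 0.298, edgeR), and the two-sided exact permutation p was 0.405. The level of 14HP33 rests on its TMM factor. The log2 fold change was 1.12 with library size as the only scaling, 3.81 with DESeq2's size factors and 3.77 with a TMM variant (TMMwsp). It was 4.12 with the MTRNR2L genes left out and 0.67 with the index suffix of the labels as a covariate. Without 14HP33 it was 0.58, and without 13EP12 it was 10.39, where the gene alone among the 36 passed the filter of p under 0.01 and 1.5-fold, against 4.7% of all genes in that fit.

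NDUFS5 was at 12.1 and 10.7 normalized CPM in 13EP12 and 13EP8, and at 5.59, 184 and 13.9 in 13EP5, 14HP24 and 15CP1. The deep libraries of the cohorts interleaved. The only level above their range was that of 14HP24, from 32 counts, and the other 5 libraries were at 0. The log2 means were 1.45 ± 1.99 and 2.83 ± 3.13 (SD, n = 5 monkeys per cohort). The log2 fold change was 2.90 (SE 2.24, adjusted p = 0.624, edgeR; two-sided exact permutation p = 0.484), and it fell to 0.04 without 14HP24.

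Among the genes lower in Cohort C, each of the 3 with the smallest p rested on 1 Cohort B library. NDUFA13 had 6.06, 3.81 and 628 normalized CPM in 13EP12, 13EP8 and 14HP26, and 9.01, 23.0 and 13.2 in 13EP5, 14HP24 and 15CP1. Its log2 fold change of -3.75 (SE 2.26, adjusted p = 0.378, edgeR) turned to 1.59 without 14HP26. NDUFC2 was at 68.3 in 13EP12 and at 6.84 and 3.93 in 13EP5 and 15CP1, and its value of -2.42 (SE 2.12, adjusted p = 0.735, edgeR) turned to 4.80 without 13EP12. NDUFB10, a cysteine-rich membrane-arm subunit, was at 28.2 in 13EP8 and at 0.932 and 7.65 in 13EP5 and 15CP1, and its value of -1.51 (SE 1.90, adjusted p = 0.946, edgeR) turned to 4.50 without 13EP8. For each of these genes the levels of the cohorts overlapped.

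**Figure D4:**
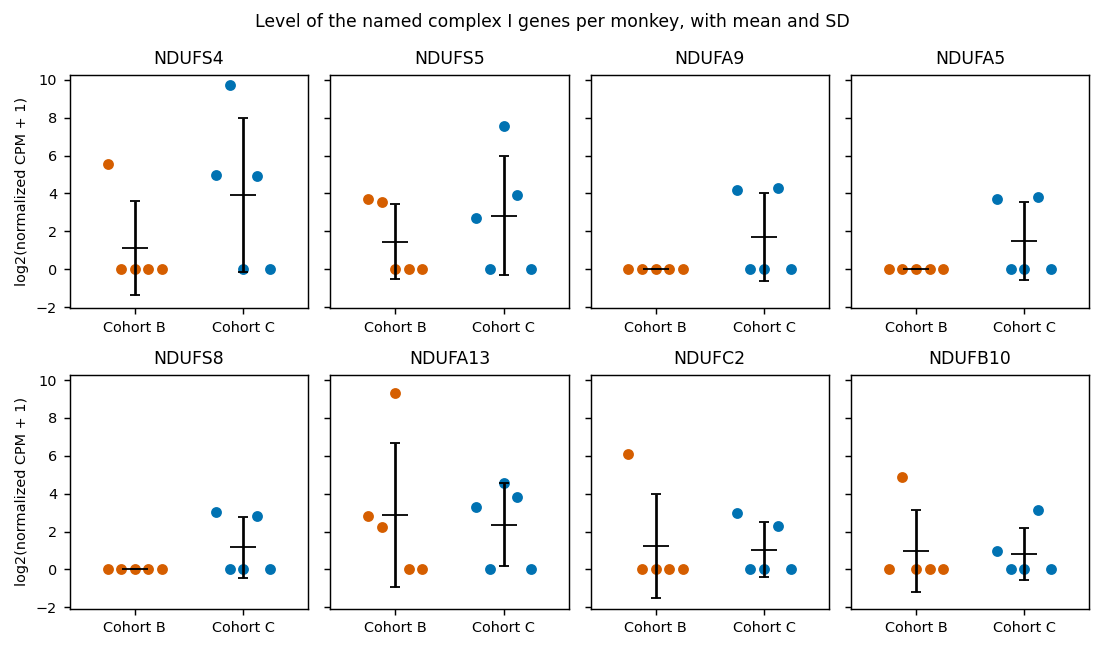
Level, as log2(normalized CPM + 1), of 8 complex I genes in each monkey (points, orange for Cohort B and blue for Cohort C), with the cohort mean and SD. In every gene but NDUFA13 at least 3 of the 5 points of a cohort lie at 0, and NDUFS4 and NDUFS5 in Cohort C and NDUFA13 in Cohort B each have 1 point far above the rest.

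Leaving out each library in turn located the cohort differences. The sign held under every removal in 19 of the 36 genes, 17 of them above 0 and 2 below (NDUFC1 and NDUFS1), and changed with at least 1 removal in 17. For NDUFA5, NDUFA9, NDUFB4 and NDUFS8, which are among those above 0, no single removal could change the sign. Cohort B held no count of them, and their Cohort C counts lay in 2 libraries. The share of all genes whose sign held is not given here, so these numbers are not set against a background. Without 13EP5 the genes divided into 18 above and 18 below 0 with a median of -0.01, against a median of -0.43 over all genes. Without 13EP8 they divided into 28 and 8 with a median of 2.20, against 0.83 over all genes. Single libraries carried single genes: NDUFAB1 turned to -0.82 without 14HP24, and NDUFS7 to 0.19 without 13EP8. NDUFA8, at 0.01 with all libraries, reached 6.86 without 15CP6. NDUFV2 had the narrowest range under these removals, at 1.16 with all libraries and between 0.59 and 1.66 with 1 left out. Other settings moved it further, to 0.04 in the 4 deep libraries alone, 0.29 with library size only and 1.95 with limma-voom.

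The 4 deep libraries allow a comparison in which depth weighs less, chosen after the totals had been seen. Both Cohort C levels lay above both Cohort B levels in 15 of the 36 genes, or 41.7%, against 31% of all genes tested. These were NDUFA1, NDUFA2, NDUFA5, NDUFA8, NDUFA9, NDUFA12, NDUFA13, NDUFB1, NDUFB2, NDUFB3, NDUFB4, NDUFB6, NDUFS3, NDUFS8 and NDUFV3. The opposite order was found for NDUFC1 alone, or 2.78%, against 6.98% of all genes. Neither NDUFS4 nor NDUFS5 was among the genes whose levels separated. NDUFB1, a small membrane-arm subunit, was at 1.73 and 0 normalized CPM in 13EP12 and 13EP8 and at 31.7 and 19.9 in 13EP5 and 15CP1, and NDUFA1, another, at 28.5 and 14.5 against 49.4 and 43.2. Fitted on these libraries alone, 24 complex I genes were above 0 and 12 below, with a median of 0.60 against 0.32 over all genes, and 0 of the 36 passed the filter of p under 0.01 and 1.5-fold, against 0.881% of all genes (edgeR, with 2 of the 36, or 5.56%, at an unadjusted p under 0.05, against 5.26% of all genes). NDUFS4 was then at 0.24, NDUFS5 at -0.40 and NDUFA13 at 1.01. Over all 36 genes the median level was 3.89 and 8.01 normalized CPM in 13EP12 and 13EP8 and 12.7 and 14.7 in 13EP5 and 15CP1. Over the genes read in each library it was 12.1 and 13.0 in Cohort B, where 13 and 9 of the 36 were at 0, and 12.7 and 14.7 in Cohort C.

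The FPKM table gave a sparser picture of the same genes. Of the 140 values of complex I genes with counts, 51 (36.4%) were listed at 0 FPKM, against 28.9% over all genes. Of the 107 values that rested on at least 10 counts, 27 (25.2%) were at 0 FPKM, against 16.9% over all genes. The reverse, an FPKM above 0 without counts, occurred for none of the 38. NDUFS4 was above 0 FPKM only in 13EP5 (357) and 15CP1 (54.9), and listed at 0 in 13EP12 and 14HP33 in spite of 53 and 59 counts. NDUFS5 was at 23.3 and 10.6 FPKM in 13EP12 and 13EP8 and at 2.84 in 15CP1, and listed at 0 in 13EP5 and 14HP24 in spite of 18 and 32 counts. NDUFA13 was at 131 and 10.6 in 13EP5 and 15CP1 and listed at 0 in 14HP26 in spite of 107 counts, and NDUFB7 was at 0 in every library in spite of 84 counts in all. The libraries that set the count-based fold changes of NDUFS4, NDUFS5 and NDUFA13 (14HP33, 14HP24 and 14HP26) were thus at 0 FPKM for these genes. Limma on log2(FPKM + 1) gave 17 of 26 complex I genes above 0, against 75.1% of all genes in that fit. After adjustment it called 0 of them, as of all genes, and 0 had an unadjusted p under 0.05, against 0.28% of all genes.

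**Figure D5:**
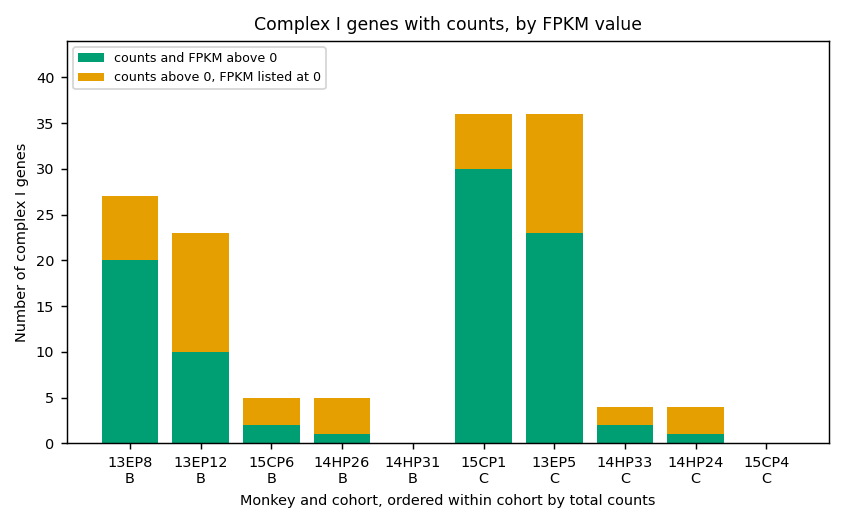
Number of complex I genes with counts in each library, split by whether their FPKM was above 0 (green) or listed at 0 (orange). In 13EP12, 13 of the 23 genes with counts were at 0 FPKM, and in 15CP1, 6 of 36.

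Other genes of the complex I pathway were compared in the same fit. Of 19 factors known for assembling complex I, 16 were in the table and 15 tested, with 7 above 0, 8 below and a median log2 fold change of -0.26. The filter called 1 of the 15, against 6.43% of all genes. It was ACAD9, a flavoprotein of the assembly machinery, with 52, 118 and 14 counts in 13EP5, 15CP1 and 15CP4 and none in the other 7 libraries (adjusted p = 0.141 by edgeR's quasi-likelihood test). This call was lost in 8 of the 10 fits with 1 library left out, holding only without 14HP33 or 14HP24, and with edgeR's exact test, DESeq2, limma-voom, the exact permutation test and the replicate block. Of 11 regulators of mitochondrial biogenesis, 10 were tested, with 5 above and 5 below 0, a median of 0.03 and 0 called. For scale, the 8 housekeeping genes had a median of 0.25 and the 10 T cell markers of -0.03. Monocyte markers had a median of -0.25, B cell markers of -1.37, CD8 and NK cell markers of -2.26, platelet markers of 2.35 and the 1 erythroid marker tested of 1.64, with 0 called in each of these lists. In 13EP5 the platelet markers tested, PF4, PPBP and ITGA2B, had 36, 285 and 166 counts, against at most 26 in any other library. The erythroid marker, HBB, had counts in 15CP6 (186) and 14HP33 (93) only. Reads of overlapping and antisense genes may be shared with some members, as the strand setting of the counting is not given in the sources used here. NDUFV2-AS1 had 18, 20 and 16 counts in 13EP8, 13EP5 and 15CP1, and NDUFB2-AS1 had 68 in 13EP5.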

How the data were processed

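Paired-end reads came from sorted Tr1 cells of 10 monkeys, 5 per cohort, in Clontech Pico stranded libraries. According to the submitters' processing notes the authors used HISAT2 2.0.2 with hg38. The authors deposited raw counts per gene, which were used as they stand, and FPKM values per gene from Cuffdiff 2.2.1. The aligned species differs from the sampled one, and counting options are not given in the sources used here. Of the 26381 genes with FPKM, 26380 also had a row of counts.

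Cohorts were taken from the sample labels, and each library from its column title. The cohorts were compared by the quasi-likelihood test of edgeR 4.0.16 in R 4.3.3 after TMM scaling. A gene entered with 10 or more counts in all, as 14168 genes did, and p-values were adjusted over all of these by Benjamini-Hochberg. The study's filter was p under 0.01 before adjustment with a change of 1.5-fold or more. Standard errors are the fold change divided by the root of the F statistic. The floor was 3 counts on the TMM-scaled library size, and floors cover counting error only. The number of genes a library would show was taken from the hypergeometric distribution (scipy 1.17.1, Python 3.11.15). Alternatives used limma 3.58.1, DESeq2 1.42.0 and exact permutation over all 252 assignments, all in R. Only the edgeR quasi-likelihood fit and the formula for the number of genes shown were checked on simulated data. FPKM were tested as log2(FPKM + 1) over genes with a mean of at least 1, so that changes of low genes are understated.

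The complex I genes, the other lists and the tests were chosen with earlier results of these data known. Counts, levels and their ranges are given for any complex I gene. Fold changes with errors are given for NDUFS4, NDUFS5 and, in either direction, the 3 genes of smallest p. Of other lists, genes are named where at most 3 share a property. Results of 1 complex I gene by itself are not reported here, while totals and counts of genes include it. No sequences were used.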

Additional observations from a re-analysis of the deposited data

Results flagged for a closer look

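Of 20 groups examined (the summed complex I level and the named genes, in each cohort), 5 held a library that stood apart from the other 4 by more than Dixon's 95% limit. Chance gives about 1 in 20 for values that vary freely, a rate that does not apply to 3 of the 5, where the other 4 libraries are tied at 0. The summed level, as log2(normalized CPM + 1), was 0 in monkey 14HP31, against 7.76 to 9.51 in the other Cohort B libraries, and 0 in monkey 15CP4, against 8.23 to 10.11 in the other Cohort C libraries. These are the shallowest libraries of their cohorts, where 3 counts equal 118 and 18.7 normalized CPM. A value of 0 there is a floor, so the rate given above does not apply to these flags either. In Cohort B, monkey 13EP12 was at 5.55 for NDUFS4 and at 6.12 for NDUFC2, and monkey 13EP8 at 4.87 for NDUFB10, each against 0 in the other 4.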

How the results depend on the processing

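No complex I gene had an adjusted p under 0.05 in any alternative or with any library left out. In each of these settings only 0 to 2 of all genes tested had one. DESeq2 gave no p for NDUFS4, NDUFS5, NDUFA13 and NDUFC2. With 1 library left out, 0 to 1 complex I genes passed the filter of p under 0.01 and 1.5-fold, 18 to 29 had a log2 fold change above 0, the median ran from -0.0061 to 2.20, and 0 to 1 assembly genes passed the filter. The lowest of these values, 18 and -0.0061, came without 13EP5. Over the same removals NDUFA13 ran from -4.31 to 1.59, NDUFC2 from -3.46 to 4.80 and NDUFB10 from -3.48 to 4.50, with the values above 0 reached without 14HP26, 13EP12 and 13EP8. With edgeR's filterByExpr rule, 2 complex I genes were left, 1 of them above 0, with a median of -0.11. The assembly gene ACAD9 was not called, leaving 0, with filterByExpr, edgeR's exact test, DESeq2, limma-voom, the exact permutation test, the replicate block, the FPKM fits and the 4 deep libraries alone, a setting added after the data had been seen. With limma-voom NDUFC2 was at 0.16 and NDUFB10 at 0.089. Limma on log2(FPKM + 1) put NDUFS5 at -1.24 and NDUFA13 at 2.12, with a pseudocount of 0.1 at -1.95 and 3.42, and without a filter on low values NDUFC2 at 0.39. In the deep libraries alone NDUFS5 was at -0.40 and NDUFA13 at 1.01. The cause of these changes was not tested. Within edgeR's quasi-likelihood test, other scalings put the median of all genes between -0.10 (library size only) and 0.34 (DESeq2's size factors), with 21 to 28 complex I genes above 0. DESeq2, which changes the model too, gave -0.31 and 20. NDUFS4 was at 1.12 with library size only, at 3.81 with DESeq2's size factors in edgeR and at 3.77 with TMMwsp. It was at 4.12 with the MTRNR2L genes left out and at 0.67 with the index suffix as a covariate.

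The replicate numbers of the titles name different monkeys in each cohort, and the deviations of same-numbered libraries correlated between -0.43 and 0.38, so the numbers do not pair them. With the replicate block, 27 complex I genes were above 0 and 9 below, with a median of 0.93, none was called, NDUFB10 was at 0.21, and the filter passed 0 genes of the whole table in place of 911.

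Depth limits what can be seen, and its part in the missing genes was not tested. The composition of 15CP1 at the same depth would have shown more complex I genes in each of the other libraries but 13EP5. All genes fell short of that composition in every other library too. In the 6 libraries under 1000000 counts, 13 complex I genes had 18 values above 0 in all, and the common dispersion over the libraries was 4.74.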
